A study of Homo sapiens with 6 samples.

Results

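The genes described here are PLAU, PLAUR, PLAT, SERPINE2, SERPINB2, SERPINF1, SERPINH1 and SERPINI1, the plasminogen activators, the urokinase receptor and 5 serpins. They were taken by name from a table of 58174 genes, 8 genes of all, and the rule used names alone. Expression was measured by mRNA-seq in KNS42, a line of cells from a childhood glioblastoma (GBM) that has long been in culture. Cells were transfected with siRNA targeting Musashi1 (siMSI1, 3 libraries) or with a control siRNA (siC, 3 libraries) and were harvested after 72 h. Both groups came from the same line, grown as adherent cells in medium with serum, so no host tissue, vessel or immune cell surrounds them. MSI1 is an RNA-binding protein of neural stem cells, and the study asked how mRNA levels depend on it in glioblastoma cells. Nothing states that the libraries came from separate cultures, and p-values then measure only the spread between these samples, which may be technical.

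Plasminogen is a circulating proenzyme that urokinase (uPA, the product of PLAU) and tissue plasminogen activator (tPA, PLAT) cleave to plasmin, a protease of fibrin and extracellular matrix. The receptor uPAR (PLAUR) holds urokinase at the cell surface, and serpins stop both activators by trapping them in a covalent complex. In the brain this system is known for tPA in synaptic and vascular biology, and in glioma for urokinase and its receptor at invading cell edges. Some serpins no longer inhibit proteases, and SERPINF1 and SERPINH1 are of this kind.

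Values are FPKM, reads scaled by gene length and by the reads of the library, and the reads behind each value were recovered from them. The libraries held 14448513 to 18024080 reads on genes in siC and 13087025 to 14700593 in siMSI1. The targeted MSI1 mRNA measured 63.7, 61.9 and 66.9 FPKM in siC, against 12.1, 12.3 and 11.2 FPKM in siMSI1, a log2 fold change of -2.43. Of 8 markers of glial and neural progenitor cells, 7 were tested, and S100B was at 0 in all libraries. In the test described below, GFAP was higher in siMSI1 at an adjusted p of at most 0.01. SOX9, FABP7 and MSI1, the siRNA target, were lower, and VIM, NES and SOX2 did not pass. Of all tested genes, 5.15% were higher and 5.83% lower. All 6 microglia and macrophage markers were below the expression filter, AIF1 and P2RY12 were at 0, and their summed level was 0.172 to 0.286 FPKM in siC and 0.363 to 0.607 FPKM in siMSI1. The summed level of 5 endothelial markers was 0.510 to 0.707 FPKM in siC and 0.661 to 0.993 FPKM in siMSI1, with none tested. Pericyte and fibroblast markers summed to 61.9 to 67.7 FPKM in siC and 37.9 to 48.5 FPKM in siMSI1, nearly all of it ACTA2. Epithelial markers summed to 22.3 to 26.0 FPKM in siC and 19.1 to 23.1 FPKM in siMSI1, most of it KRT18. Neuronal markers summed to 3.91 to 4.64 FPKM in siC and 3.40 to 3.83 FPKM in siMSI1, most of it SYT1. The part of these markers in the results below was not tested.

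The 8 genes spanned a wide range of levels. SERPINH1, the collagen chaperone, stood far above the others with a mean of 63.8 FPKM in siC and 55.2 FPKM in siMSI1. PLAT came next in both groups, followed by PLAUR, and the libraries of these 3 genes did not overlap. In siC the order went on with SERPINI1, which overlapped PLAUR, and then SERPINE2, PLAU and SERPINF1, where SERPINI1 and SERPINE2 overlapped, as did PLAU and SERPINF1. In siMSI1 the order after PLAUR was SERPINF1, SERPINE2, SERPINI1 and PLAU, and only SERPINF1 and SERPINE2 overlapped as neighbours. SERPINF1 thus moved from the lowest mean of the detected genes in siC to the fourth place in siMSI1. SERPINB2 was at 0 in all 6 libraries.

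**Figure D1:**
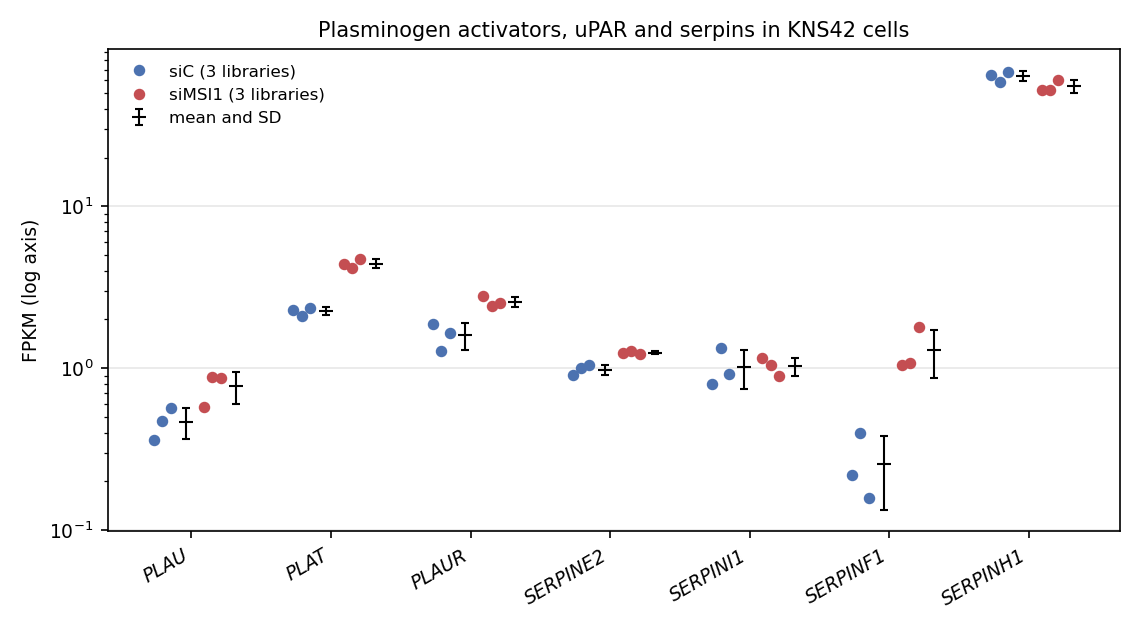
FPKM on a log axis of the 7 detected genes in each of 3 siC (blue) and 3 siMSI1 (red) libraries, with the mean and SD of each group in black; SERPINB2, at 0 in all libraries, is not drawn. PLAT lies between 2.11 and 2.35 FPKM in siC and between 4.16 and 4.75 FPKM in siMSI1, SERPINF1 lies below 0.4 FPKM in siC and above 1 FPKM in siMSI1, and the groups of SERPINI1 and SERPINH1 overlap.

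Of the activators, PLAT rose upon MSI1 depletion. PLAT (ENSG00000104368) lies on the minus strand of chromosome 8 at 42174718 to 42207709 (GRCh38, GENCODE 44). Its level was 2.30, 2.11 and 2.35 FPKM in siC replicates 1 to 3 and 4.39, 4.16 and 4.75 FPKM in siMSI1 replicates 1 to 3, from 224 to 253 reads in siC and 361 to 451 reads in siMSI1. All siMSI1 libraries were above all siC libraries, with a distance between the groups far larger than the spread within them. The means were 2.26 ± 0.126 FPKM in siC and 4.43 ± 0.295 FPKM in siMSI1 (SD, n = 3), 1.96-fold higher in siMSI1. The log2 fold change, here and below the difference of mean log2(FPKM + 0.1) of siMSI1 minus siC, was 0.94 with a standard error of 0.101 and an adjusted p = 0.00084 in limma's moderated test, Benjamini-Hochberg over 15069 genes. Past the threshold below means an adjusted p of at most 0.01 in this test. The rise stayed past the threshold under all 17 other settings, which include leaving out each library, with an adjusted p of 1.77e-12 to 0.00589. As these are bulk libraries, more cells with PLAT mRNA and more of it per cell cannot be told apart, and this holds for every gene below.

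PLAU was a low gene in KNS42, with 16 to 25 reads in the siC libraries and 25 to 37 in the siMSI1 libraries. PLAU (ENSG00000122861) lies on the plus strand of chromosome 10 at 73909177 to 73917496. Its level was 0.362, 0.468 and 0.566 FPKM in siC and 0.575, 0.879 and 0.873 FPKM in siMSI1. The groups did not overlap, but the lowest siMSI1 library and the highest siC library lay side by side. The mean was 0.465 ± 0.102 FPKM in siC and 0.776 ± 0.174 FPKM in siMSI1, with a log2 fold change of 0.63, a 95% interval of -0.07 to 1.33 and an adjusted p of 0.170 in limma, so the difference did not pass the test. A lncRNA on the opposite strand, C10orf55, overlaps PLAU and held 1 to 2 reads per library. If strand was not used in counting, reads in the overlap could be lost or mixed, which would affect the PLAU level.

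The study proposes that miR-143-3p and miR-27b-3p act on the 3′UTR of the mRNA of CD44, a gene not described here. The 3′UTR of the main (MANE Select) transcript of each gene was therefore searched for the 7 bases that pair with the miRNA seeds. The mature miRNAs are given from RefSeq, 5′ to 3′, with the seed (bases 2 to 8) in capitals, because their seeds define the searched words.
hsa-miR-143-3p: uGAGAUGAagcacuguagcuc
hsa-miR-27b-3p: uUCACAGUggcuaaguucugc

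Of the 8 genes, PLAU was the one whose 3′UTR, of 929 bases, held a match to either seed, and it held 1 of each. The pairing word UCAUCUC of miR-143-3p begins at base 64 of this 3′UTR (chr10:73916629-73916635, GRCh38, plus strand) and the word ACUGUGA of miR-27b-3p at base 617 (chr10:73917182-73917188). Among the 3′UTRs of 11207 tested genes, 14.3% held the first word and 18.35% the second. The matched stretches are shown with the words in capitals, as they mark where such pairing could lie on the PLAU transcript.
PLAU with the miR-143-3p word: uugcaguagagUCAUCUCcaucagcugua
PLAU with the miR-27b-3p word: aaacuguguggACUGUGAugccacacaga
A match is a description of the sequence and not a measured site. PLAT held neither word, and whether the words bear on the level or change of either mRNA was not tested.

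PLAUR, the receptor, was higher in every siMSI1 library and did not pass the threshold. PLAUR (ENSG00000011422) lies on the minus strand of chromosome 19 at 43646095 to 43670547. Its level was 1.87, 1.28 and 1.64 FPKM in siC and 2.79, 2.41 and 2.52 FPKM in siMSI1, from 103 to 125 and 141 to 183 reads. The highest siC library was below the lowest siMSI1 library. The means were 1.60 ± 0.299 FPKM in siC and 2.57 ± 0.192 FPKM in siMSI1, with a log2 fold change of 0.67 ± 0.158 (standard error) and an adjusted p of 0.0194 in limma. On the recovered reads with voom, limma's test for counts, the adjusted p was 0.00239, past the threshold.

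The promoter of PLAUR is printed because PLAUR was the gene nearest to the threshold among those that missed it, and because an AP-1 motif is known to drive its transcription. The window covers 250 bases before to 50 after the RefSeq start, on the minus strand of chr19:43670120-43670419 (GRCh38.p14), and the capitals mark the one match to the AP-1 word TGANTCA on either strand, at base -186 relative to the start.
PLAUR promoter: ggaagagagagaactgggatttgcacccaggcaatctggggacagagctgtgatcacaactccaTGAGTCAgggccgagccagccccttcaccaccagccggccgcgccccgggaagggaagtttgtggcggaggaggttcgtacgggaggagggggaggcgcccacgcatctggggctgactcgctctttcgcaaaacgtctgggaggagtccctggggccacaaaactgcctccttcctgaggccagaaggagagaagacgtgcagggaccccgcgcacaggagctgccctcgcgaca
Of 35116 promoters of this length, 7.709% held this word. The promoter table held 6 of the 8 genes. PLAU, SERPINE2, SERPINH1 and SERPINI1 had no match, and the search by gene did not cover SERPINB2.

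Of the serpins that inhibit the activators, SERPINE2 and SERPINI1 did not pass the threshold and SERPINB2 was not tested. SERPINE2, protease nexin-1 of glial cells, inhibits thrombin, urokinase and tPA and lies on the minus strand of chromosome 2 at 223975045 to 224039318 (ENSG00000135919). It was at 0.901, 1.001 and 1.04 FPKM in siC, against 1.24, 1.28 and 1.22 FPKM in siMSI1. All siMSI1 libraries were above all siC libraries by a small margin. The log2 fold change was 0.32, with a 95% interval of -0.04 to 0.68 and an adjusted p of 0.179 in limma.

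The word GUAGU, a form of the known Musashi recognition motif, occurred in the 3′UTRs of SERPINE2 and PLAT, once in each, and in none of the other 6. It is a short word that 52.28% of 11207 3′UTRs held. In SERPINE2 it begins at base 701 of 822 (chr2:223975162-223975166, minus strand), and the stretch is shown with the word in capitals because MSI1 was the depleted protein.
SERPINE2 with the Musashi word: aacuguuaugaGUAGUaaaaauaaagc
Whether the word bears on the level of either mRNA was not tested. GUAGU was the only form of the motif searched, so the 3′UTRs without it may hold other forms.

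SERPINI1, neuroserpin, is the inhibitor of tPA in neurons and lies on the plus strand of chromosome 3 at 167735243 to 167825569 (ENSG00000163536). Its level was 0.801, 1.33 and 0.920 FPKM in siC and 1.15, 1.04 and 0.893 FPKM in siMSI1. The siMSI1 values lay within the range of siC. The log2 fold change was 0.04, with a 95% interval of -0.49 to 0.56, an interval that does not exclude a change of either sign. SERPINB2, plasminogen activator inhibitor 2, lies on the plus strand of chromosome 18 at 63871692 to 63903888 (ENSG00000197632) and had no read in any library. Its limit, set at 3 reads per library, was 0.0603 to 0.0833 FPKM, and such limits cover counting error only.

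SERPINF1 showed the largest fold change of the 8 genes. SERPINF1 encodes pigment epithelium-derived factor, a secreted serpin without protease inhibition that is known to restrain vessel growth, and lies on the plus strand of chromosome 17 at 1762029 to 1777565 (ENSG00000132386). It was at 0.217, 0.396 and 0.159 FPKM in siC, from 10, 22 and 7 reads, and at 1.04, 1.07 and 1.79 FPKM in siMSI1, from 47, 43 and 79 reads. Each siMSI1 library was above each siC library, and the values spread within each group. The means were 0.257 ± 0.124 FPKM in siC and 1.30 ± 0.427 FPKM in siMSI1, 5.05-fold higher in siMSI1. The log2 fold change was 1.98, with a standard error of 0.366 and an adjusted p of 0.0075 in limma. SERPINF1 passed the expression filter through its siMSI1 libraries, and its call was narrow. The adjusted p was 0.0254 without siC replicate 1, 0.0190 without siC replicate 3, and 0.0216, 0.0218 and 0.0298 without siMSI1 replicates 1, 2 and 3, all above 0.01, and 0.0085 without siC replicate 2. The log2 fold change stayed at 1.75 to 2.25 in these fits. With 1 in place of 0.1 added to the FPKM it was 0.86.

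SERPINH1, also called HSP47, is a chaperone of procollagen in the endoplasmic reticulum and lies on the plus strand of chromosome 11 at 75562056 to 75572783 (ENSG00000149257). Its level was 65.1, 58.7 and 67.6 FPKM in siC and 52.5, 52.4 and 60.6 FPKM in siMSI1, from 3374 to 5216 reads per library. One siMSI1 library, replicate 3, lay above siC replicate 2, so the groups overlapped. The means were 63.8 ± 4.60 and 55.2 ± 4.74 FPKM, with a log2 fold change of -0.21, a 95% interval of -0.41 to -0.01 and an adjusted p of 0.114 in limma. SERPINH1 was the one gene of the 7 tested with a lower mean in siMSI1.

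The promoter of SERPINH1 is shown because a heat shock element drives the known induction of this chaperone, and because its level exceeded that of every other gene here. The window lies on the plus strand of chr11:75562003-75562302 (GRCh38.p14, RefSeq), and the capitals mark the match to the heat shock word TTCNNGAANNTTC, at base -76 relative to the start of this window, the first of 2 starts listed for the gene.
SERPINH1 promoter: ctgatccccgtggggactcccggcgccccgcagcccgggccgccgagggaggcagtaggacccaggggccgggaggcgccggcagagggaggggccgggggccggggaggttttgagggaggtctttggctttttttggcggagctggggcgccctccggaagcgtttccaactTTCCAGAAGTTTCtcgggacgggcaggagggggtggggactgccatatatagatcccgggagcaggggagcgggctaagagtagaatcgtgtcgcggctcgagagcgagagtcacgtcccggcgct
Of 35116 promoters, 0.4898% held this word. PLAU, PLAUR, SERPINE2 and SERPINI1 did not hold it, and the search by gene did not cover SERPINB2.

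Counted over the 8 genes, 7 were tested, 2 were higher in siMSI1 past the threshold and 0 were lower. Among all 15069 tested genes, 11.0% passed, 5.15% as higher and 5.83% as lower. Among the 7380 tested genes with a mean under 5 FPKM, as for 6 of the 7 genes, 6.10% passed and 2.82% were higher. At an unadjusted p under 0.05 in limma, 3 of the 7 were higher and 1 was lower, where 19.0% of all tested genes were higher and 19.3% lower. With voom on the recovered reads 3 were called higher and 0 lower, where 8.81% of all tested genes were called higher and 10.1% lower. All siMSI1 libraries were above all siC libraries for 5 of the 7, namely PLAT, PLAU, PLAUR, SERPINE2 and SERPINF1, where this held for 21.4% of all tested genes. The median log2 fold change was 0.63 for the 7 genes and 1.46e-05 for all tested genes. PLAU and SERPINF1 had siC means under the filter of 0.5 FPKM and were tested owing to their siMSI1 libraries, so these counts are a description only.

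Set against each other within a library, PLAT exceeded PLAU by 4.16- to 6.35-fold in siC and by 4.73- to 7.63-fold in siMSI1, ranges that overlap. The level of PLAUR relative to PLAU was 2.73- to 5.17-fold in siC against 2.74- to 4.84-fold in siMSI1. Relative to SERPINI1 and SERPINE2, PLAT stood higher in siMSI1. The ratio of PLAT to SERPINI1 was 1.59 to 2.87 in siC against 3.81 to 5.32 in siMSI1, and the ratio of PLAT to SERPINE2 was 2.11 to 2.55 in siC against 3.25 to 3.88 in siMSI1, with no overlap for either. For a single ratio the exact two-sided permutation test of 3 against 3 libraries cannot go below p = 0.1, so no p is given. These ratios share the PLAT values that already rose.

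Of 71 further genes of the pathway, in 7 lists by role, 46 were tested, 4 were higher and 2 were lower past the threshold, with a median log2 fold change of 0.21. These 6 genes are 13.0% of those tested, close to the 11.0% of all tested genes that passed. Plasminogen (PLG) was below the filter, at 0 FPKM in siC and 0.00364 FPKM in siMSI1 on average. Of the 5 plasminogen receptors tested, S100A10, which binds plasminogen at the cell surface together with annexin A2, fell from 682, 641 and 688 FPKM in siC to 423, 434 and 491 FPKM in siMSI1. Its log2 fold change was -0.58 with an adjusted p of 0.0021, and the highest siMSI1 library was well below the lowest siC library. Annexin A2 (ANXA2) itself was at 1.64 FPKM in siC and 2.03 FPKM in siMSI1 (adjusted p = 0.191, limma). ENO1, an enolase that also binds plasminogen, was at 492 FPKM in siC and 557 FPKM in siMSI1 (adjusted p = 0.285, limma).

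Of 7 tested genes in the list of uptake receptors and their chaperone, VLDLR rose. VLDLR, an endocytic receptor of the LDL receptor family, was at 9.43, 10.4 and 9.71 FPKM in siC, against 17.2, 17.9 and 16.5 FPKM in siMSI1, a log2 fold change of 0.80 with an adjusted p of 0.000445. The groups lay far apart, and the rise stayed past the threshold under all 17 other settings. MRC2, the uPAR-associated collagen receptor, was at 103 FPKM in siC and 138 FPKM in siMSI1 (adjusted p = 0.0110), and IGF2R, which binds uPAR and plasminogen, at 21.8 and 26.7 FPKM (adjusted p = 0.0259, limma).

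Of 12 other inhibitors, 2 were tested. A2M, the broad protease inhibitor alpha-2-macroglobulin, rose from 234, 231 and 227 FPKM in siC to 311, 325 and 364 FPKM in siMSI1, a log2 fold change of 0.53 with an adjusted p of 0.0025. The siC libraries lay close together and all siMSI1 libraries above them. TFPI2, a Kunitz inhibitor of plasmin, was at 11.2 FPKM in siC and 9.64 FPKM in siMSI1 (adjusted p = 0.106, limma).

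Of 3 tested genes of thrombin and its partners, PROCR rose and F3 fell. PROCR, the receptor of protein C, was at 0.826, 0.913 and 1.35 FPKM in siC, against 3.72, 4.27 and 4.15 FPKM in siMSI1, a log2 fold change of 1.90 with an adjusted p of 0.000571 that stayed past the threshold under all 17 other settings. F3, tissue factor, the starter of coagulation, was at 59.0, 62.1 and 56.5 FPKM in siC, against 45.3, 43.2 and 39.6 FPKM in siMSI1, a log2 fold change of -0.47 with an adjusted p of 0.0038. Neither gene had overlapping groups. F2R, the thrombin receptor, was at 7.52 FPKM in siC and 7.32 FPKM in siMSI1 (adjusted p = 0.753, limma).

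Of 10 tested partners of uPAR and pericellular substrates, 0 passed in limma, 5 were higher and 0 lower at an unadjusted p under 0.05 (19.0% and 19.3% of all tested genes), and voom called 3 higher and 0 lower (8.81% and 10.1% of all tested genes). With so few genes nothing is read from these counts. ITGB1, an integrin chain that pairs with uPAR, was at 58.1 FPKM in siC and 69.4 FPKM in siMSI1 (adjusted p = 0.121), and CAV1, caveolin, at 46.8 and 56.7 FPKM (adjusted p = 0.0299, limma). Of 15 tested partners of SERPINH1 in procollagen processing, PPIB rose. PPIB, the cyclophilin of the endoplasmic reticulum that aids procollagen folding, went from 243, 234 and 265 FPKM in siC to 308, 345 and 370 FPKM in siMSI1, a log2 fold change of 0.46 with an adjusted p of 0.0084. P4HB was at 112 FPKM in siC and 108 FPKM in siMSI1 (adjusted p = 0.642, limma). Of 4 tested receptors of SERPINF1, 0 passed in limma, 2 were higher and 1 lower at an unadjusted p under 0.05, and voom called 2 higher and 0 lower, beside the same shares of all tested genes. RPSA, the laminin receptor, was at 181 FPKM in siC and 239 FPKM in siMSI1 (adjusted p = 0.0193), and PNPLA2, a lipase that binds SERPINF1, at 15.9 and 13.4 FPKM (adjusted p = 0.101, limma).

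Several of these calls lost the threshold when 1 library was left out. The adjusted p of S100A10 was 0.0161 without siC replicate 1 and 0.0120 without siC replicate 3, and that of A2M was 0.0167, 0.0122 and 0.0137 without siC replicates 1, 2 and 3. For F3 it was 0.0228, 0.0164 and 0.0113 without siC replicates 1, 2 and 3, and 0.0129 without siMSI1 replicate 2. For PPIB it was 0.0429, 0.0349 and 0.0172 without siC replicates 1, 2 and 3, and 0.0285 and 0.0128 without siMSI1 replicates 2 and 3. With plain moderation it was 0.0103 for S100A10, 0.0118 for A2M, 0.0159 for F3 and 0.0267 for PPIB, and without the expression filter it was 0.0121 for F3 and 0.0227 for PPIB. PPIB was also above 0.01 with median centring, at 0.0129. In each of these fits the direction was kept.

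**Figure D2:**
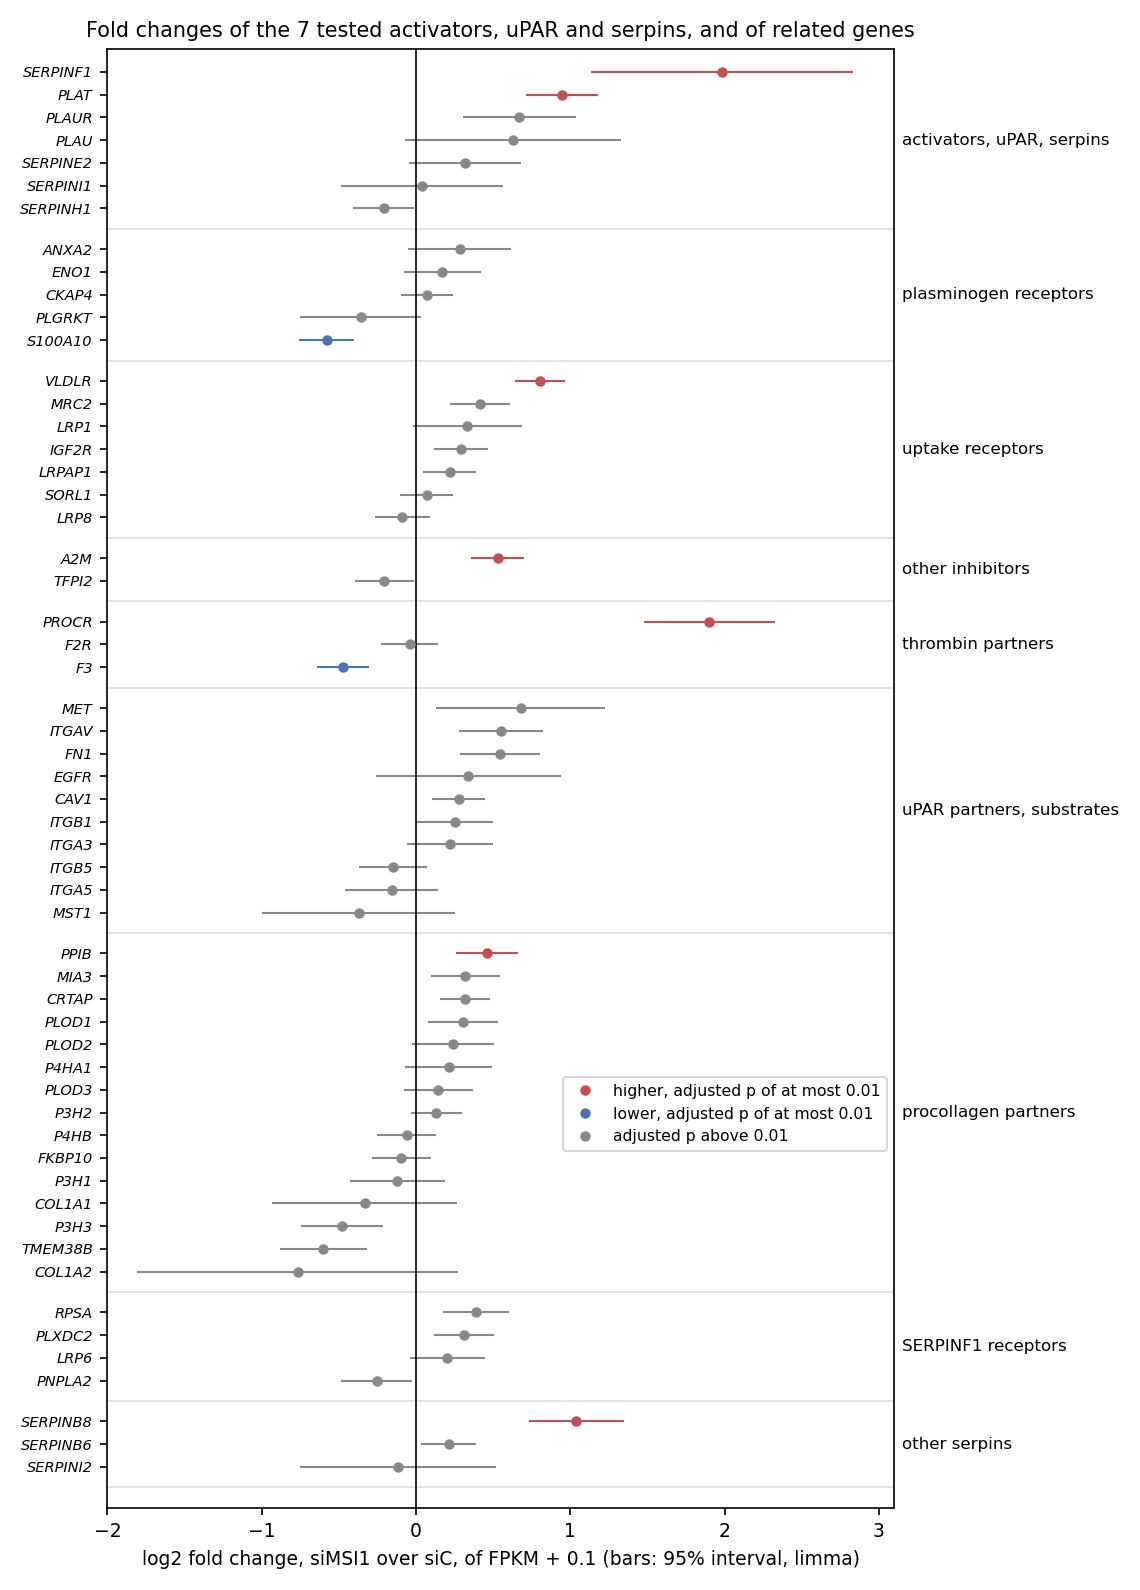
Log2 fold change of FPKM + 0.1, siMSI1 over siC, with the 95% interval from limma, for the 7 tested activators, uPAR and serpins (top), the 46 tested genes of the pathway lists and 3 other serpins; red and blue mark genes higher and lower at an adjusted p of at most 0.01. SERPINF1 at 1.98 and PROCR at 1.90 lie farthest to the right, and S100A10 at -0.58 and F3 at -0.47 are the genes called lower.

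**Figure D3:**
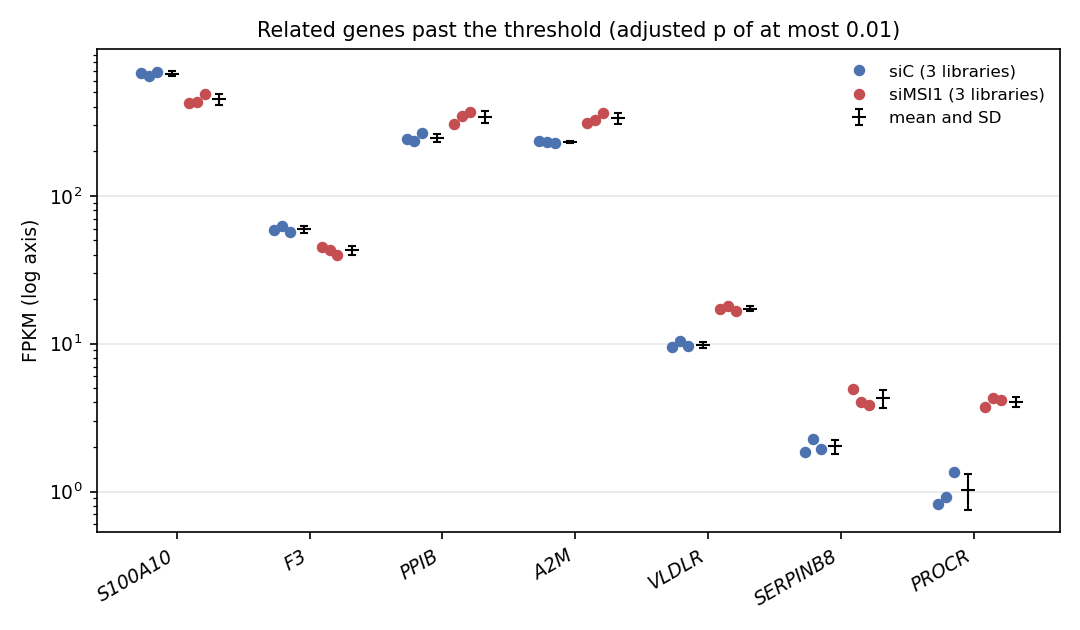
FPKM on a log axis in each of 3 siC (blue) and 3 siMSI1 (red) libraries, with the mean and SD in black, for the 7 related genes past the threshold. S100A10 and F3 lie lower in siMSI1, and PPIB, A2M, VLDLR, SERPINB8 and PROCR lie higher, without overlap between the groups.

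The serpin family as a whole was sparse in KNS42. Of 33 protein-coding serpin genes considered, 13 were at 0 in all libraries, 8 more had at most 3 reads in every library, and 7 were tested. SERPINH1 and SERPINB6, an intracellular inhibitor, were the 2 above 50 FPKM, and together they made up 94.2% to 96.0% of the summed FPKM of these serpins in siC, against 92.2% to 93.3% in siMSI1. Beyond the genes described above, the tested serpins considered were SERPINB8, SERPINB6 and SERPINI2. SERPINB8, an intracellular inhibitor of furin, rose from 1.84, 2.27 and 1.94 FPKM in siC to 4.91, 4.004 and 3.86 FPKM in siMSI1, with no overlap. Its log2 fold change was 1.04 with an adjusted p of 0.0017, and the call was lost only without siC replicate 1, at 0.0102, among 17 other settings. SERPINB6 was at 56.4 FPKM in siC and 65.4 FPKM in siMSI1 (adjusted p = 0.0794), and SERPINI2 at 0.658 and 0.596 FPKM (adjusted p = 0.794, limma).

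For both genes that rose, the 3 genes with the most similar pattern were sought among 7039 protein-coding genes with a mean of at least 5 FPKM, by the root mean square difference of centred log2 values over the 6 libraries. For PLAT these were SULF2, at 22.2 FPKM in siC and 42.2 FPKM in siMSI1, with a difference of 0.0337, KIRREL3 with 0.0362 and CD74 with 0.0462. For SERPINF1 they were GBP2, at 3.25 FPKM in siC and 9.84 FPKM in siMSI1, with a difference of 0.391, SLC26A9 with 0.406 and BTG2 with 0.409. The distances of PLAT and SERPINF1 are not compared, as PLAT had 224 to 451 reads per library and SERPINF1 had 7 to 79.

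**Figure D4:**
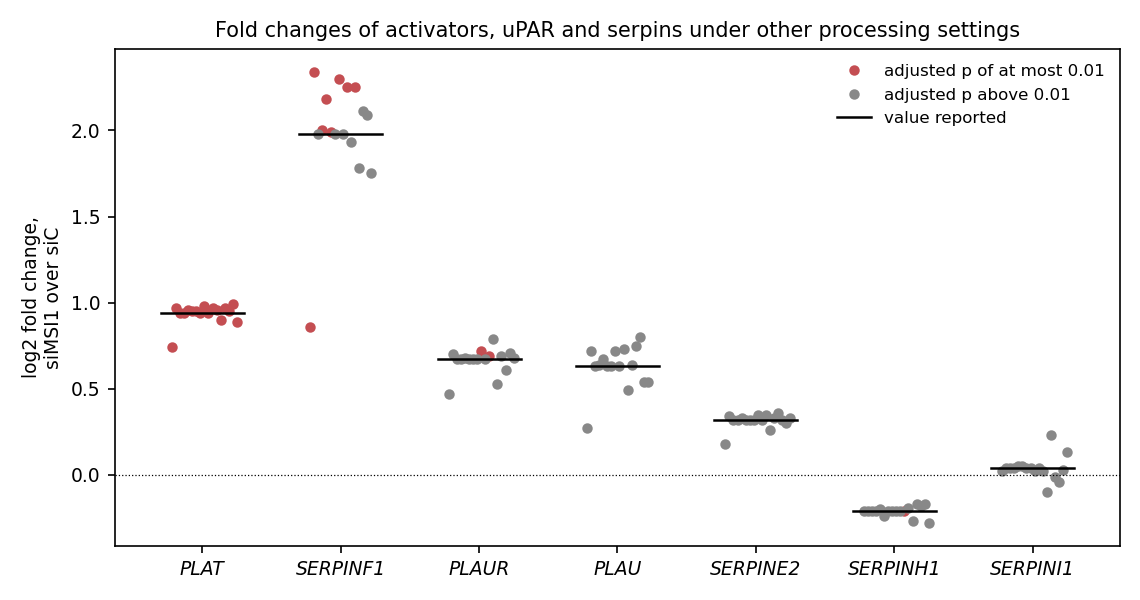
Log2 fold change, siMSI1 over siC, of the 7 tested genes under the reported setting (black line) and under each other setting or left-out library (points, red where the adjusted p was at most 0.01). PLAT is past the threshold throughout, SERPINF1 in 8 of 16 settings, PLAUR in 2 of 17, and SERPINI1 changes sign around 0.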

How the data were processed

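Poly(A) RNA of 6 KNS42 libraries was sequenced. The authors clipped reads with Cutadapt 1.14, aligned them to GRCh38 with HISAT2 2.1.0, summarized them per gene with featureCounts 1.5.3 on Ensembl 89 and deposited FPKM values for 58174 genes. Library preparation was strand-specific, and the strand setting of the counting is not given in the sources used here. Gene length and the authors' own log2 fold change, p-value and FDR of siMSI1 against siC, made with edgeR 3.18.1, are also in the deposited table, and the comparison columns were not used.

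From FPKM, length and library size the reads were recovered (100% of values whole within 0.05, scaling factors 0.977 to 1.03). limma 3.58.1 in R 4.3.3 (lmFit, eBayes with trend and robust) was fitted to log2(FPKM + 0.1), keeping 15069 genes whose mean reached 0.5 FPKM, without a block, and p-values were adjusted by Benjamini-Hochberg with a threshold of 0.01. No pair of libraries was a duplicate. Scripts were tested on simulated data. Genes beyond the 8 were named by rule. From each list these were up to 4 past the threshold with the largest change and the 2 with the highest mean. All tested serpins and the 3 nearest patterns of each gene that passed were also named. PLG, below the filter, and ANXA2, the partner of S100A10, were named in addition after their values were seen. 1 gene of the lists is not reported here and was left out of their counts. The 8 genes and all lists were chosen with earlier results of these data known. Motifs were searched on both strands of RefSeq promoters, words on the transcript strand of MANE Select 3′UTRs (GENCODE 44). Alternatives were other added values, filters, normalizations and moderation, voom, a replicate block, an adjusted p of 0.05 and leaving out each library. Other steps ran in Python 3.11.15 (numpy 2.4.6, pandas 2.3.3, matplotlib 3.10.9).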

Additional observations from a re-analysis of the deposited data

How the results depend on the processing

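Of the 8 genes, PLAT kept its call throughout, with a log2 fold change of 0.74 to 0.99. SERPINF1 was past the threshold in 8 of 16 settings that tested it, with 1.98 and an adjusted p of 0.0174 without the filter and 0.0116 with plain moderation, and it was not tested at a mean of at least 1 FPKM. PLAUR passed with voom (0.72, adjusted p = 0.00239). SERPINI1 turned to -0.1, -0.01 and -0.04 without siC replicate 1, siC replicate 3 and siMSI1 replicate 1. Signs also turned for F2R (0.01 without siMSI1 replicate 3) and SERPINI2 (0.01 without siC replicate 2), within left-out ranges of -0.07 to 0.01 for F2R and -0.23 to 0.01 for SERPINI2. The cause was not tested.

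The number of the 8 genes past the threshold was 1 without the filter, with a mean of at least 1 FPKM, with plain moderation and with the replicate block, and 1 to 2 when a library was left out. The number of pathway genes past the threshold was 10 at a mean of at least 1 FPKM, 2 with plain moderation, 16 with voom and 17 at an adjusted p of 0.05, and 2 to 6 with a library left out, lowest without siC replicate 1 or 3. The number of all genes past the threshold was 792 without the filter, 847 with plain moderation, 2855 with voom and 3787 at an adjusted p of 0.05, and 528 to 1603 with a library left out (528, 846 and 801 without siC replicates 1 to 3, 817 and 888 without siMSI1 replicates 1 and 2). Left-out fits had 5 libraries.

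Leaving out single libraries gave log2 fold changes of 0.89 to 0.99 for PLAT, 0.49 to 0.80 for PLAU, 0.53 to 0.79 for PLAUR, 0.26 to 0.36 for SERPINE2, 1.75 to 2.25 for SERPINF1, -0.28 to -0.17 for SERPINH1 and -0.10 to 0.23 for SERPINI1.

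The labels do not state whether libraries with the same replicate number were paired. The deviations of same-numbered libraries correlated at -0.066, 0.078 and 0.083. These values cannot decide it, as deviations from a mean of 3 libraries are tied to each other. With the replicate block, SERPINF1 had 1.98 (adjusted p = 0.0167), 14 pathway genes passed and 2250 of all genes passed. With voom and the replicate block, 4 of the 8 genes passed (PLAUR 0.69, SERPINH1 -0.21 with an adjusted p of 0.00118), as did 26 pathway genes and 5070 of all genes.

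Depth limits PLAU, SERPINF1 and SERPINI1, which had under 80 reads in every library, and SERPINB2, which had none.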
